A study of Mus musculus with 6 samples.

Results

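The genes described here are 9 transcripts by which the chambers of the developing heart are usually told apart: *Myh6*, *Myl4*, *Myl7* and *Sln*, taken as atrial, *Myh7* and *Myl2*, taken as ventricular, and *Myh7b*, *Nppa* and *Nppb*, placed in neither class. They were chosen by name, with earlier results of these data known, from the 55401 gene identifiers of a table of read counts, and all 9 were found in it. Of these, 8 were abundant enough to enter the comparison of genotypes, among 16784 genes tested, and *Sln* was not. The libraries came from whole mouse embryos at E10.5, all on a C57BL/6J background. There were 3 libraries of wild-type (WT) littermates and 3 of 5C embryos, which carry a tandem array of 5 copies of *Mir483*, a microRNA gene inside an *Igf2* intron, at the endogenous locus. The 5C allele came from targeted ES cells through chimeric males. RNA of 2 embryos, described as male, was pooled for each library. Nothing in the labels ties a 5C pool to a WT pool of the same number. The design asks how excess *Mir483* alters the embryonic transcriptome, and for these genes, whether atrial and ventricular transcripts differ between 5C and WT.

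Cardiac muscle contracts through myosin, a motor built from heavy chains with an ATPase head and from pairs of essential and regulatory light chains. *Myh6* encodes the fast alpha heavy chain and *Myh7* the slower beta heavy chain, which dominates in the fetal ventricle and is also made in slow skeletal fibres. *Myl7* encodes the atrial regulatory light chain, *Myl4* the atrial essential light chain, which is also made in embryonic skeletal muscle, and *Myl2* the ventricular regulatory light chain. Several of these transcripts start out broadly in the early heart tube and become restricted to a chamber later, so their class names describe the mature heart better than the embryo at this stage. *Nppa* and *Nppb* encode the natriuretic peptides ANP and BNP, hormones that lower blood volume, and in the embryo both mark atria and ventricular trabeculae. *Sln* encodes sarcolipin, an atrial inhibitor of the calcium pump SERCA.

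The genes include neighbouring pairs. *Myh6* (chr14:54941921-54966927, minus strand, GRCm38) and *Myh7* (chr14:54970684-54994626, minus strand) are 3756 bases apart, and *Nppb* (chr4:147985788-147987205, plus strand) and *Nppa* (chr4:148000722-148002079, plus strand) are 13516 bases apart. The others stand alone, with *Myh7b* at chr2:155611212-155634307 and *Myl2* at chr5:122100951-122113472, both on the plus strand. *Myl4* (chr11:104550663-104595753, plus strand) and *Myl7* (chr11:5896637-5898782, minus strand) share a chromosome only, and *Sln* lies at chr9:53850164-53854560 on the plus strand. No exon of any of the 9 genes lay under another gene on the same strand.

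Each of the 3 heavy chain genes hosts a microRNA in an intron, and the mature sequences are shown because they place these genes beside the edited microRNA. The sequences are from RefSeq, with positions on GRCm38, and are written 5′ to 3′ with the seed, bases 2 to 8, in capitals. The first lies in intron 29 of *Myh6* (chr14:54949072-54949093, minus strand), the next in intron 31 of *Myh7* (chr14:54975710-54975731, minus strand) and the third in intron 19 of *Myh7b* (chr2:155622893-155622913, plus strand), and the last pair are the arms of the *Mir483* hairpin (chr7:142654932-142654952 for the 3p arm and chr7:142654968-142654989 for the 5p arm, minus strand).
miR-208a-3p: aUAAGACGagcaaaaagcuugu
miR-208b-3p: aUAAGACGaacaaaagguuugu
miR-499-5p: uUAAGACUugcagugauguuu
miR-483-3p: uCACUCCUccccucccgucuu
miR-483-5p: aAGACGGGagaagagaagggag
The *Myh6* and *Myh7* microRNAs share the seed UAAGACG, and the *Myh7b* microRNA carries UAAGACU. The rows of *Mir208a*, *Mir208b* and *Mir499* held 0 counts in all 6 libraries, which were made from poly(A)-selected RNA and do not measure mature microRNAs. A match to the 7-base seed of miR-483-3p was present in 10.55% of 20918 annotated 3′ UTRs and a match to that of miR-483-5p in 2.67%. None of the 9 genes had either match in the 3′ UTR of its longest coding transcript, over UTRs of 26 to 992 bases. This says only that these letters are absent from these windows.

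The pair of heavy chain genes at chromosome 14 is close in sequence, which bears on how well their counts can be told apart. Their coding sequences were 91.7% identical, with 482 differing bases of 5802 aligned, against 72.7% for *Myh6* with *Myh7b* and 72.9% for *Myh7* with *Myh7b*. Of all 40-base windows of *Myh6* transcripts, 24.34% also occurred in *Myh7*, and 18.83% of those of *Myh7* occurred in *Myh6*. A read that fits both cannot be assigned to either, so the levels of this pair are uncertain to that extent. The coding stretch of 60 bases where they differ most follows, with the 24 differing bases in capitals, from chr14:54952277-54952336 in *Myh6* and chr14:54980352-54980411 in *Myh7*, both within 1 exon and on the minus strand (GRCm38).
Myh6: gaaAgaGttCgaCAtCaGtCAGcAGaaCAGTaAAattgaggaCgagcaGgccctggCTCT
Myh7: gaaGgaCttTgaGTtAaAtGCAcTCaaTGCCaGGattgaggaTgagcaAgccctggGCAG
Reads from such stretches tell the 2 genes apart, whereas the longest stretch without a difference ran for 245 bases. The light chains were less alike, at 65.1% for *Myl2* with *Myl7*, 59.7% for *Myl2* with *Myl4* and 58.4% for *Myl4* with *Myl7*, and at most 1.36% of their windows occurred in any other gene. For *Nppa*, 55.21% of windows lay opposite the antisense gene *Gm13054*, which had between 0 and 4 counts in a library. The antisense genes opposite *Myh6* and *Myh7*, *Mhrt* among them, had at most 2 counts. Which strand was counted is not given in the sources used here.

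Upstream sequence is shown for *Myl7* and *Nppa*, an atrial light chain and a natriuretic peptide gene whose RefSeq and GENCODE starts coincide. These are the 120 bases before each start, at chr11:5898783-5898902 (minus strand) and chr4:148000602-148000721 (plus strand), from RefSeq on GRCm38.p6, with the motif matches in capitals.
Myl7: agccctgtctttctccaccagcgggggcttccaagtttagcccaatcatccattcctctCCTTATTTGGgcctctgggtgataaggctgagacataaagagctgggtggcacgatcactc
Nppa: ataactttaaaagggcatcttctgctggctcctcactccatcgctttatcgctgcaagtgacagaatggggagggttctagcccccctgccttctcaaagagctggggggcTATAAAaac
The *Myl7* sequence held a CArG box, the site bound by serum response factor, starting 61 bases before the start, and 1.47% of 32851 promoter windows of 250 bases held one on either strand. The *Nppa* sequence held TATAAA starting 9 bases before the start, as did 12.37% of all windows at any position. It also held GGTGTGA, the letters of a T-box site, 250 bases before the start, outside the bases shown, as did 3.33% of all windows. AGATAA, the letters of a GATA site, occurred in 9.99% of windows and TAAAAATA, those of a MEF2 site, in 2.45%. Both were found upstream of *Myh7b*. *Myh6*, *Myh7* and *Myl4* held none of these motifs within 250 bases. *Nppb* and *Myl2* also held matches, in windows whose RefSeq and GENCODE starts differ and which are not shown. The starts also differ for *Myh6*, *Myh7b* and an *Myh7* window. The *Myh6* window lies inside its GENCODE gene, so the lack of matches there does not cover the sequence before that start. The motifs were searched on both strands, and no match overlapped another in these windows. A match is a string of letters and was not tested as a binding site.

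The libraries held between 6357343 and 19151368 counts, and WT replicate 3 was the shallowest. A level resting on 3 counts ranged from 0.157 to 0.479 CPM (counts scaled to library totals after adjustment by trimmed mean of M values). Such floors cover counting error only. The edited gene *Mir483* had a WT mean of 0.442 ± 0.129 CPM and a 5C mean of 4.02 ± 1.33 CPM (SD, n = 3 each), with each 5C library above each WT library. Sex-linked transcripts went against the stated sex of the pools in all 6 libraries. *Xist*, the RNA that silences an X chromosome in females, was between 495 and 914 CPM in every library, and the Y-linked *Ddx3y* measured 0.944 CPM in WT replicate 2 and 0 CPM in 5C replicate 2, against 41.6 to 55.9 CPM in the others. Markers of yolk sac and hepatoblasts summed to 6214 CPM in WT replicate 1 and to 1240 CPM in 5C replicate 3, against 180 to 520 CPM in the others. Values without both replicate 2 libraries, or without WT replicate 1 and 5C replicate 3, are given where they move a result. Since the RNA came from whole embryos, fewer cells of a cardiac type and less RNA per cell cannot be told apart in any of the levels that follow.

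Per kilobase of the longest coding transcript, the light chains stood above the other chamber genes in both genotypes. *Myl7* led with a mean level of 131 CPM per kilobase in WT and 110 in 5C. *Myl2* had 81.8 and 74.3, and *Myl4* had 76.0 and 68.8 CPM per kilobase. The libraries of *Myl7* and *Myl2* did not overlap on this scale, with WT levels of 101 to 174 and 68.6 to 96.9 CPM per kilobase, whereas those of *Myl2* and *Myl4* did. *Nppa* followed at 23.1 in WT and 20.4 in 5C. The heavy chains had lower levels per kilobase, with 13.3 in WT and 9.63 in 5C for *Myh7* and 12.0 and 6.61 for *Myh6*. In WT, *Myh6* (9.999 to 14.1) and *Myh7* (12.8 to 14.2) overlapped, and in 5C, *Myh6* (5.41 to 8.0) lay below *Myh7* (8.39 to 10.8) in CPM per kilobase. *Nppb*, *Myh7b* and *Sln* closed the order at 3.81, 0.791 and 0.362 CPM per kilobase in WT and at 4.36, 0.866 and 0.345 in 5C.

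The heavy chains *Myh6* and *Myh7* were the members with the widest separation between genotypes, and both were known to be lower in 5C when the genes were chosen, so these values are a description. *Myh6* measured 61.1, 86.5 and 72.3 CPM in WT replicates 1 to 3 and 48.9, 39.2 and 33.1 CPM in the 5C replicates. Every 5C library lay below every WT library. Mean levels of 73.3 ± 12.7 CPM for WT and 40.4 ± 7.97 CPM for 5C (SD, n = 3 each) gave 0.553 of the WT level, or -0.85 as log2 fold change (standard error 0.16). These levels rest on 453 to 1165 counts per library.

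*Myh7* stood at 79.7, 88.4 and 80.4 CPM in the WT libraries and at 52.3, 60.4 and 67.2 CPM in the 5C libraries. Again no 5C library reached the lowest WT library. Mean levels of 82.9 ± 4.84 and 59.98 ± 7.46 CPM (SD, n = 3 each) gave 0.723 of the WT level, or -0.47 as log2 fold change (standard error 0.10). The beta heavy chain is shared with slow skeletal muscle. A general skeletal muscle list, mostly of myogenic factors, fast fibre and embryonic genes, had a median log2 fold change of 0.06 over 13 genes tested, with sums of 83.8 to 108 CPM in WT and 80.2 to 99.0 CPM in 5C. Of these genes 7 were positive and 6 negative. *Tnnt1*, the slow troponin T and the marker of slow fibres in this list, had 0.21 (standard error 0.15). *Myh3*, with the highest level of the list, had -0.28 (standard error 0.15). The part of skeletal muscle in the *Myh7* levels was not tested.

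*Myh7b*, a slow myosin heavy chain expressed weakly in the heart, showed no such separation. It stood at 4.51, 5.50 and 4.63 CPM in the WT libraries and at 7.57, 4.95 and 3.49 CPM in the 5C libraries. The 5C libraries spanned the whole WT range, with both the highest and the lowest of the 6 levels. Its log2 fold change of 0.14 had a standard error of 0.27, and leaving out 5C replicate 1 turned it to -0.21.

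The regulatory and essential light chains overlapped between genotypes. *Myl2* stood at 61.0, 86.1 and 71.2 CPM in the WT libraries and at 63.5, 57.9 and 76.7 CPM in the 5C libraries. *Myl4* stood at 60.8, 90.3 and 64.0 CPM in the WT libraries and at 59.9, 60.6 and 74.0 CPM in the 5C libraries. *Myl7*, the third of them, stood at 59.8, 102 and 69.9 CPM in the WT libraries and at 63.3, 56.3 and 75.4 CPM in the 5C libraries. In each of these genes WT replicate 2 was the highest library and 5C replicate 3 came next. The log2 fold changes were -0.14 with a standard error of 0.14 for *Myl2*, -0.15 with 0.15 for *Myl4* and -0.25 with 0.18 for *Myl7*. Intervals of 2 standard errors ran from -0.41 to 0.14, from -0.44 to 0.15 and from -0.62 to 0.12. Differences inside these intervals were not detectable with these libraries, and without WT replicate 2 the estimates turned to 0.0086, 0.059 and 0.014.

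The natriuretic peptide genes also overlapped. *Nppa* stood at 16.1, 24.0 and 19.8 CPM in the WT libraries and at 16.4, 19.3 and 17.3 CPM in the 5C libraries. The 5C libraries lay within the WT range, with a log2 fold change of -0.17 (standard error 0.15). *Nppb* stood at 1.94, 3.95 and 3.03 CPM in the WT libraries and at 3.45, 2.56 and 4.20 CPM in the 5C libraries, on 19 to 59 counts per library. Its log2 fold change of 0.24 (standard error 0.30) turned to -0.056 without WT replicate 1, its lowest library. *Nppa* exceeded *Nppb* by 6.09 to 8.30 times in WT and by 4.12 to 7.53 times in 5C in counts, ranges that overlap.

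*Sln* stood near the floor in every library. It had 10, 5 and 3 counts in WT and 11, 4 and 5 counts in 5C, or 0.525, 0.429 and 0.479 CPM against 0.667, 0.342 and 0.356 CPM. The genotypes overlapped, and a difference in sarcolipin transcripts was not detectable at this depth.

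**Figure D1:**
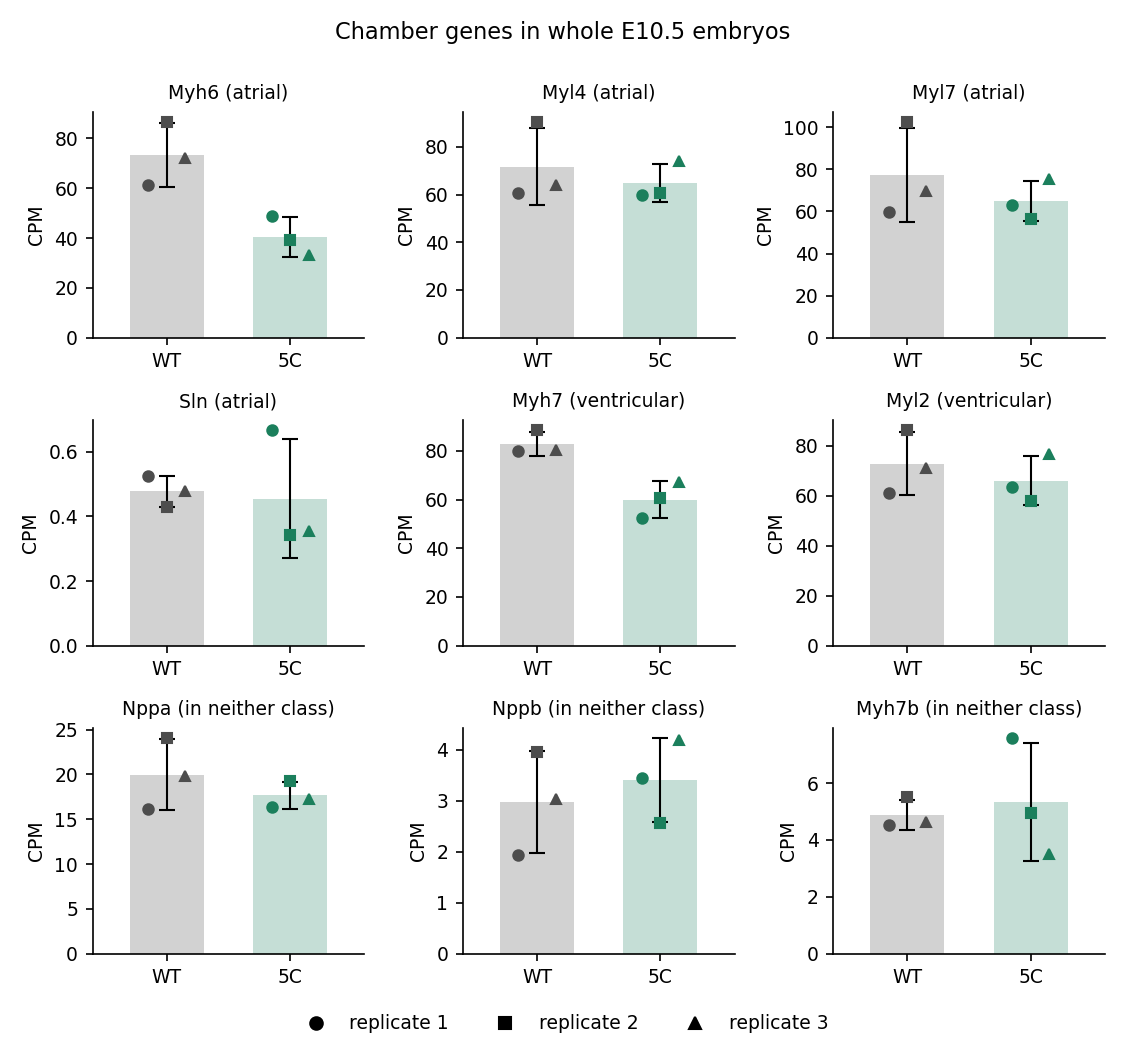
Level of each chamber gene in CPM (linear axis from 0) in 3 WT and 3 5C libraries, where points are libraries, bars are means and error bars are SD. *Myh6* and *Myh7* are the panels in which the 5C points all sit below the WT points.

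Across these genes, 6 of the 8 tested had a negative log2 fold change, and their median was -0.16 against -0.00 over all genes tested. None was a differentially expressed gene (DEG, an adjusted p under 0.05 with a fold change over 1.5) in edgeR's quasi-likelihood test, in which 0% of all genes were DEGs. That share belongs to the fit made here. The study itself reported DEGs between these genotypes with edgeR at the same thresholds, mostly lower in 5C. Why the 2 results differ was not tested. At an unadjusted p under 0.05 there were 2 members, *Myh6* and *Myh7*, both lower in 5C, where 6.02% of all genes passed in either direction. In the same 2 genes all 5C libraries were below all WT libraries, as in 5.1% of all genes, and 0 members had all 5C libraries above, as in 6.26%. Since the contrast was known when the members were chosen, nothing is read from these shares. DESeq2 called *Myh6* a DEG, with 0.0655% of all genes called, and so did edgeR without a count filter, with 0.963% called. *Myh7* passed the adjusted p in both but not the fold change.

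Of 20 pan-cardiomyocyte genes, which encode sarcomere, calcium handling and regulatory proteins of heart muscle and were all tested, 18 had a negative log2 fold change, with a median of -0.19 and a range from -0.45 to 0.21. None was a DEG, and 5 were lower at an unadjusted p under 0.05, as were 583 of all 16784 genes tested. In 5 no 5C library reached a WT library, as in 5.1% of all genes. These were not all the same genes. *Mybpc3* and *Ryr2* passed that p but overlapped between genotypes, and *Smyd1* and *Myocd* were the reverse. The list was chosen with earlier results known, so nothing is read from these shares. Among the 20 genes, the smallest p belonged to *Ttn*, the giant sarcomere spring (-0.32), and *Tbx20*, a cardiac transcription factor (-0.27). *Mybpc3*, which binds myosin (-0.45), and *Actc1*, cardiac actin (-0.21), came next. The *Myh6* log2 fold change of -0.85 (standard error 0.16) was below the lowest of these 20 genes, *Mybpc3* (-0.45, standard error 0.17). That of *Myh7*, -0.47 (standard error 0.10), was not separated from *Mybpc3* within these standard errors.

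**Figure D2:**
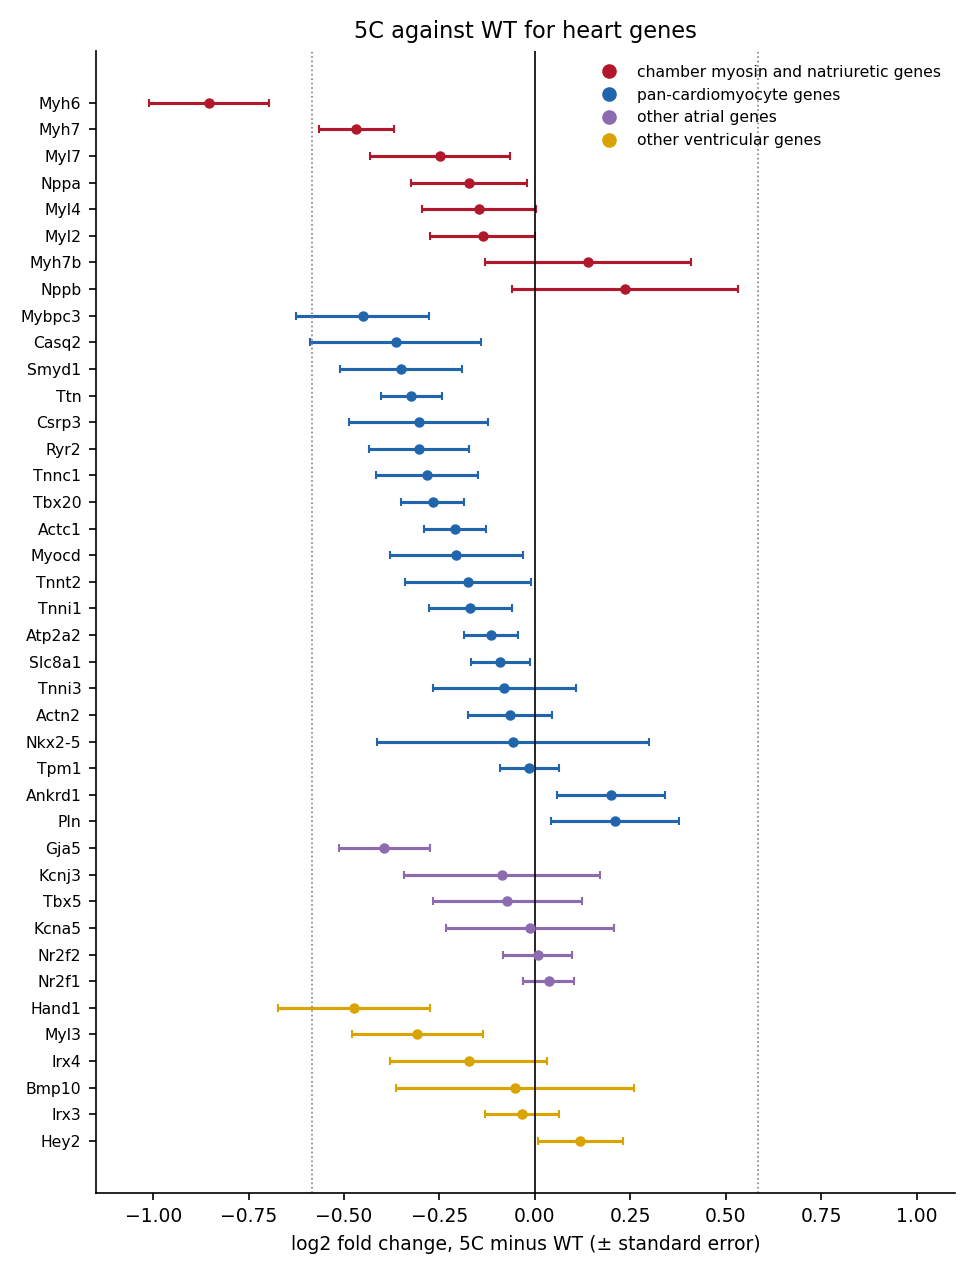
Log2 fold change of 5C against WT (points) with its standard error (bars) for the 8 chamber genes tested, 20 pan-cardiomyocyte genes and 6 other genes each of atrium and ventricle; dotted lines mark a fold change of 1.5. *Myh6* is the single point beyond the dotted lines.

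To set the members against other genes of heart muscle in each library, their CPM were divided by the summed CPM of the 20 pan-cardiomyocyte genes. In whole embryos this sum was not shown to measure heart muscle RNA alone, and the part of other tissues in it was not tested. All 9 members together came to 17.7%, 22.1% and 18.2% of that sum in WT and to 17.2%, 16.7% and 18.97% in 5C. These shares overlapped, and their log2 difference of -0.13 was smaller than the pooled SD of 0.141. As a mean of logs over genes in place of summed CPM it was -0.051, and without both replicate 2 libraries it was 0.0048. The sum is led by *Ttn*, *Tpm1* and *Atp2a2*, of which *Tpm1* and *Atp2a2* had an r with the members' mean of 0.357 and -0.252 over the 6 libraries. *Myh6* alone came to 3.14%, 3.92% and 3.42% in WT and to 2.66%, 2.17% and 1.79% in 5C, without overlap. *Myh7* came to 4.09%, 4.01% and 3.80% in WT and to 2.84%, 3.34% and 3.63% in 5C, also without overlap. The shares of the other 7 members overlapped between genotypes. All these shares depend on the genes in the sum, and other sums were not tried for single members.

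Atrial and ventricular members were then compared within each library, as the mean log2 CPM of *Myh6*, *Myl4*, *Myl7* and *Sln* minus that of *Myh7* and *Myl2*. The difference was -1.90, -1.82 and -1.88 in WT and -1.60, -1.97 and -2.13 in 5C. The 5C libraries lay on both sides of the WT libraries. Between genotypes it moved by -0.04, less than the pooled SD of 0.193, and it ranged from -0.19 to 0.074 with 1 library left out. The value depended on the classes: with *Nppa* counted as atrial and *Nppb* and *Myh7b* as ventricular it was -0.22. That SD belongs to the first classes and does not measure the spread with these. Their own SD and levels per library are not given, so overlap of the genotypes cannot be read for them. *Sln*, with the lowest level of all members, enters the atrial mean and makes it lower than the ventricular one. It rests on 3 to 11 counts per library and was not tested, yet weighs as much as each other atrial member. Its 5C levels of 0.667, 0.342 and 0.356 CPM thus enter the spread of the 5C scores. With CPM summed per class, where *Sln* weighs little, the difference between genotypes was -0.058. The score was not computed without *Sln*, so the position of the 5C libraries may depend on it. Counted as medians of log2 fold changes, the 3 atrial members tested stood at -0.25 and the 2 ventricular members at -0.30, and each class held 1 gene without overlap between genotypes.

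Single pairs were compared in the same way. *Myl7* over *Myl2*, the atrial and ventricular regulatory light chains, had count ratios of 0.979, 1.19 and 0.982 in WT and 0.997, 0.972 and 0.983 in 5C. *Myl4* over *Myl2* ranged from 0.899 to 1.05 in WT and from 0.943 to 1.05 in 5C. *Myh6* over *Myh7*, the alpha and beta heavy chains, had ratios of 0.766, 0.978 and 0.899 in WT and 0.935, 0.648 and 0.493 in 5C. This last ratio spread wider in 5C than in WT and overlapped, with the highest 5C library between 2 WT libraries. *Myh6* over *Myl7*, both atrial, had ratios of 1.02, 0.844 and 1.03 in WT and 0.772, 0.697 and 0.439 in 5C, without overlap, a pair chosen after its values were seen.

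**Figure D3:**
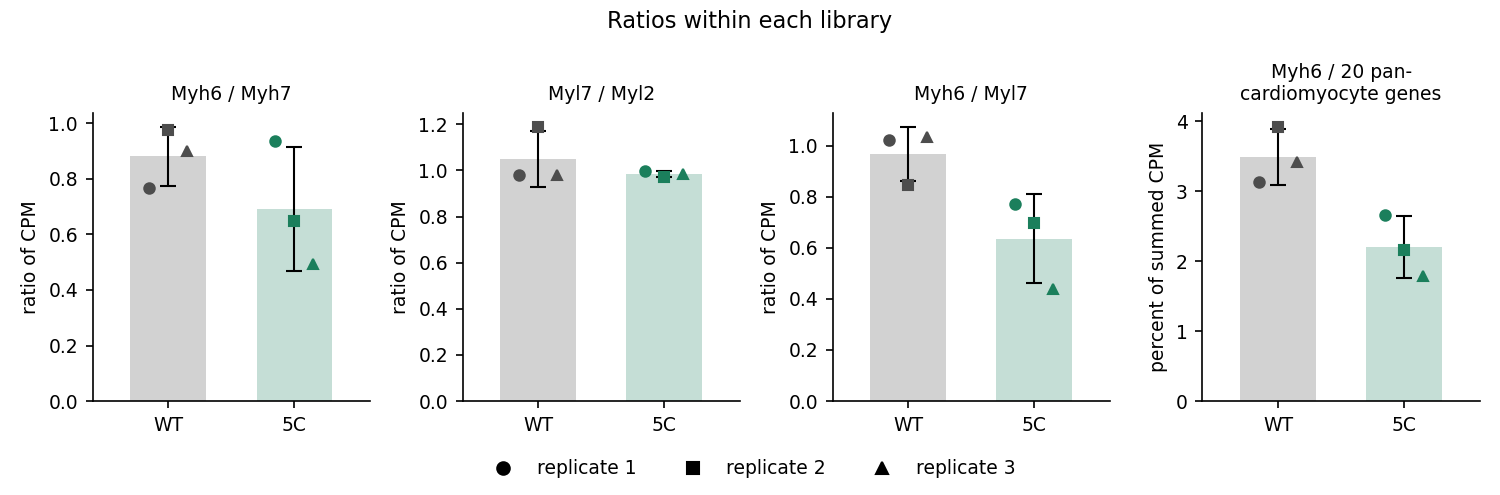
Count ratios of *Myh6* to *Myh7*, *Myl7* to *Myl2* and *Myh6* to *Myl7*, and *Myh6* as percent of the summed CPM of 20 pan-cardiomyocyte genes, in 3 WT and 3 5C libraries (points), with means (bars) and SD (error bars) on linear axes from 0. The ratio of light chains is near 1 in both genotypes, and the 2 panels on the right show *Myh6* lower in every 5C library.

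The members also varied among libraries of 1 genotype. The mean of their centred log2 CPM was -0.15, 0.40 and 0.07 in WT and -0.05, -0.20 and -0.07 in 5C, and that of the pan-cardiomyocyte genes was -0.06, 0.27 and 0.03 in WT and -0.07, -0.13 and -0.03 in 5C. WT replicate 2 was the highest library in both. The light chains varied together, with Pearson's r over the 6 libraries of 0.971 for *Myl2* with *Myl7*, 0.964 for *Myl4* with *Myl7* and 0.928 for *Myl2* with *Myl4*. *Myh6* and *Myh7* had an r of 0.717, *Nppa* and *Nppb* 0.403, and *Myh6* and *Nppb* -0.084. These 6 points share libraries and genotype, so the values describe the libraries only.

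**Figure D4:**
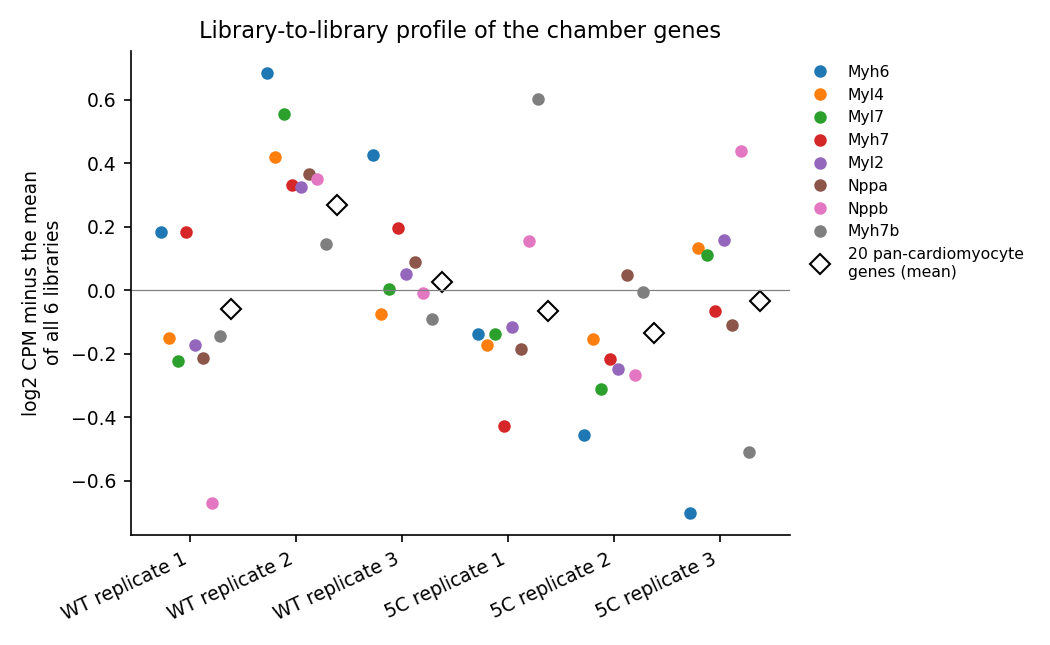
Log2 CPM of the 8 chamber genes tested (filled points, spread sideways) and mean of 20 pan-cardiomyocyte genes (open diamonds) in each library, relative to each gene's mean over 6 libraries. All 8 genes are above 0 in WT replicate 2, and *Myh6* is above 0 in all WT libraries and below 0 in all 5C libraries.

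The gene whose log2 CPM was most like the members' mean over the 6 libraries was *Myl3*, the ventricular essential light chain, with an r of 0.996 among 10344 genes of at least 10 CPM. *Myl3* stood at 26.1, 44.6 and 32.2 CPM in the WT libraries and at 29.1, 25.9 and 27.98 CPM in the 5C libraries. The next were *Ak1* (0.992), *Ipo5* (0.992), *Exoc3* (0.984) and *Eftud2* (0.983). Besides *Myl3*, none of these is a gene of the lists used here.

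Other genes of the chambers and of natriuretic signalling gave no DEG. In whole embryos their levels may also come from tissues outside the heart, and that part was not tested. Of 6 other atrial genes, all tested, 4 were negative with a median of -0.04. The lowest was *Gja5*, a gap junction protein of atria and conduction tissue. It stood at 23.1, 20.2 and 19.3 CPM in the WT libraries and at 17.0, 16.6 and 14.2 CPM in the 5C libraries. No 5C library of this gene reached a WT library, as in 5.1% of all genes. Of 6 other ventricular genes, 5 were negative with a median of -0.11, and *Hand1*, a transcription factor of the outer curvature of the left ventricle, stood lowest with a log2 fold change of -0.47. Of 7 natriuretic partners, 4 were negative with a median of -0.01. The receptor genes for ANP and BNP, *Npr1*, and for the related peptide CNP, *Npr2*, had log2 fold changes of -0.40 and 0.02. *Corin*, the protease that activates ANP, had -0.23. *Prkg1*, the kinase downstream of cyclic GMP, had 0.29 and was the single gene of these 7 with all 5C libraries above all WT libraries. That was so for 6.26% of all genes.

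Markers of other cells were read alongside. All 5 smooth muscle genes were negative, with a median log2 fold change of -0.31 and sums of 157 to 172 CPM in WT and 130 to 136 CPM in 5C. In *Acta2* and *Tagln*, contractile genes that the embryonic heart also expresses, no 5C library reached a WT library, as in 5.1% of all genes. All 10 yolk sac and hepatoblast genes were negative with a median of -2.13. In summed CPM, WT replicate 1 (6214) and 5C replicate 3 (1240) were the highest libraries, against 258 and 520 CPM in WT replicates 2 and 3. *Alb* and *Lrp2* were higher in WT replicate 3 than in 5C replicate 3. The 8 erythroid genes had a median of 0.09, with sums of 9257 to 12734 CPM in WT and 8451 to 16536 CPM in 5C. Of 7 decidual genes, 5 were tested with a median of 1.82, and the list summed to 10.49 to 49.3 CPM in WT and 12.6 to 55.7 CPM in 5C. The part of these cells in the members' levels was not tested. Without WT replicate 1 and 5C replicate 3, the log2 fold change of *Myh6* was -0.85 and that of *Myh7* was -0.59, and without both replicate 2 libraries they were -0.69 and -0.42.

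The members' median log2 fold change followed which libraries were used. It was 0.01 without WT replicate 2, 0.10 without both replicate 2 libraries, -0.29 without WT replicate 1, -0.26 without 5C replicate 3 and -0.37 without WT replicate 1 and 5C replicate 3, while the median of all genes stayed between -0.01 and 0.00. *Myh6* stayed between -1.02 and -0.71 and *Myh7* between -0.56 and -0.38 with any 1 library left out. With offsets fitted on GC content in each library the members' median was -0.11, with *Myh6* at -0.79 and *Myh7* at -0.39. Transcript GC content and log2 fold change had a Spearman's rho of -0.312 across 16770 genes, which are not independent replicates. The transcripts of *Myh6* and *Myh7* held 56.4% and 56.2% GC. Those of the other tested members held 59.2% (*Myh7b*), 55.5% (*Myl4*), 55.3% (*Nppa*), 54.9% (*Myl7*), 50.3% (*Myl2*) and 47.9% (*Nppb*).

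**Figure D5:**
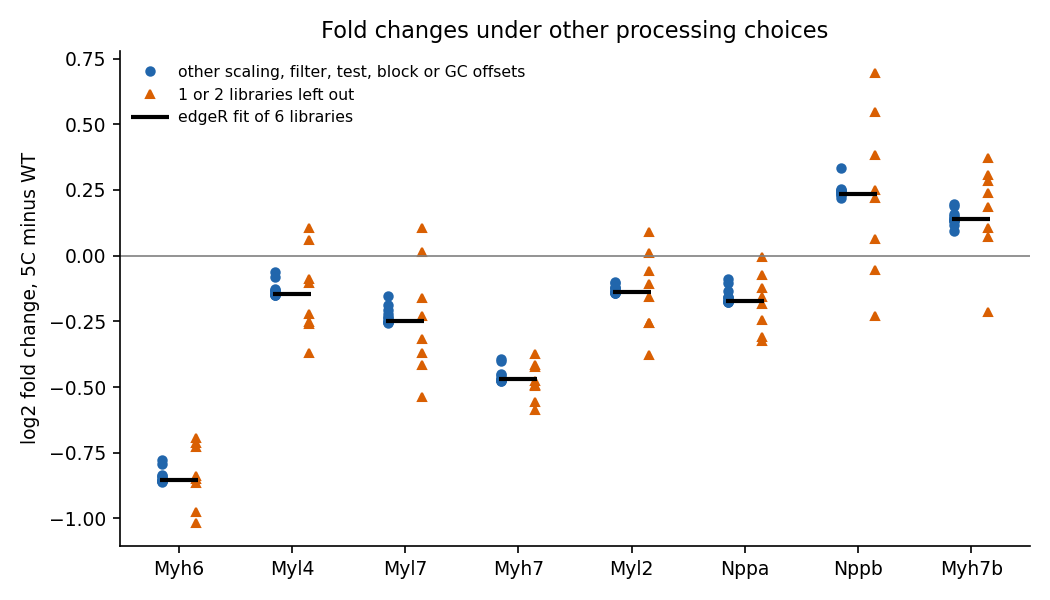
Log2 fold change of the 8 chamber genes tested (5C minus WT) in the edgeR fit of 6 libraries (black line), under other scalings, filters, tests, the replicate block or GC offsets (circles), and with 1 or 2 libraries left out (triangles). *Myh6* and *Myh7* are below 0 in every setting shown, and the light chains, *Nppb* and *Myh7b* have triangles on both sides of 0.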

How the data were processed

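RNA-seq counts were taken from 6 libraries of whole E10.5 embryos, 3 WT and 3 5C, grouped by their titles. Per the study's methods, mRNA was captured with a stranded kit, sequenced single-end, and aligned by STAR (GRCm38, Ensembl genes). The authors deposited the resulting raw counts per gene, which are whole numbers and not normalized. Of 55401 gene identifiers, 55141 were found in a GENCODE annotation of GRCm38, which gave symbols, positions and transcript sequences. MicroRNA and promoter sequences came from RefSeq.

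From the counts, 5C was compared with WT in edgeR 4.0.16 (R 4.3.3) with filterByExpr on genotype, TMM scaling and the legacy quasi-likelihood F-test, with two-sided p-values adjusted by Benjamini-Hochberg over all genes tested. The standard error was the size of the log2 fold change divided by the square root of F. Log2 CPM used a prior count of 0.5. Scores and ratios per library have no test, and with 3 against 3 libraries the smallest two-sided permutation p would be 0.1. The WT pools are described as littermates of the 5C pools, with no match of single pools, and every pair of libraries differed by more than sampling noise (chi-square per gene of at least 5.82).

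Members and lists were chosen with earlier results of these data known. Genes named are the 9 members, *Mir483*, the microRNA genes inside myosin genes, at most 4 genes with the smallest p of each other list, and the 5 genes of at least 10 CPM most correlated with the members' mean. The antisense genes, the sex-linked *Ddx3y* and *Xist*, *Tpm1*, *Atp2a2*, *Ryr2*, *Smyd1*, *Myocd*, *Alb*, *Npr2* and *Corin* were named outside this rule, with their values known. *Tnnt1* and *Npr1* meet the rule and were also named with their values known. The alternatives tried were scaling by library size alone or by relative log expression, no count filter or 10 counts in every library, DESeq2 1.42.0, limma-voom (limma 3.58.1), edgeR's newer form, robust moderation, the replicate block, GC offsets (natural spline with 5 degrees of freedom), and each library left out. For the scores they were a prior count of 2, other classes, sums or means of logs, and GC-corrected values. Leaving out both replicate 2 libraries, or WT replicate 1 with 5C replicate 3, was added after the data were seen. Of these methods, the main edgeR fit alone was tested on simulated data. The alternatives, the scores and ratios, and the sequence searches were not.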

Additional observations from a re-analysis of the deposited data

How the results depend on the processing

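The count of DEGs was 0 in edgeR's quasi-likelihood test, with 1011 genes below a p of 0.05 before adjustment, and rose to 319 without a count filter (298 lower and 21 higher in 5C), to 11 in DESeq2 (8 lower and 3 higher), to 3 with robust moderation and to 2 without WT replicate 1 and 5C replicate 3. With 1 library left out it ranged from 0 to 1. Members called numbered 0, against 1 (*Myh6*) without a count filter and in DESeq2, and 0 with any 1 library left out. The adjusted p of *Myh6* was 0.781 in edgeR and lay between 0.0956 and 0.999 under the other alternatives, whereas it was 5.1e-16 without a count filter, at a log2 fold change of -0.84, and 1.6e-05 in DESeq2, at -0.86. That of *Myh7* was 0.781 in edgeR, 7.4e-05 without a filter, at -0.45, and 0.0206 in DESeq2, at -0.47. The cause was not tested.

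With 1 library left out, log2 fold changes ranged from -1.02 to -0.71 for *Myh6*, -0.56 to -0.38 for *Myh7*, -0.21 to 0.37 for *Myh7b*, -0.26 to 0.0086 for *Myl2*, -0.26 to 0.059 for *Myl4*, -0.42 to 0.014 for *Myl7*, -0.32 to -0.0036 for *Nppa* and -0.056 to 0.55 for *Nppb*. The signs turned without WT replicate 2 (*Myl2*, *Myl4* and *Myl7*), without 5C replicate 1 (*Myh7b*) and without WT replicate 1 (*Nppb*). Without both replicate 2 libraries, *Myl2*, *Myl4* and *Myl7* came to 0.091, 0.10 and 0.10, and without WT replicate 1 and 5C replicate 3, *Nppb*, *Myl4* and *Myl7* came to -0.23, -0.37 and -0.54. The atrial minus ventricular difference ranged from -0.19 to 0.074 and the members relative to pan-cardiomyocyte genes from -0.19 to -0.033, against pooled SDs of 0.193 and 0.141. The first came to -0.22 with the other classes, whose own SD is not given. The second was beyond its SD without WT replicate 1 (-0.19), WT replicate 3 (-0.17), 5C replicate 3 (-0.19), or WT replicate 1 and 5C replicate 3 together (-0.25). Each alternative was within 1 SD of the value reported, with the SD taken from the main setting. For the other classes that SD is not a measure of their own spread.

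Deviations of same-numbered libraries from their group means correlated at -0.174, 0.202 and -0.166, so the numbers were not taken to pair the libraries. The fit with the replicate block gave 0 DEGs, 782 genes below that p, 0 members called and an adjusted p of 0.888 for *Myh6*. With the block and GC offsets it gave 0 DEGs, with 510 such genes. It changed no call of a member.

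*Sln*, *Nppb* and *Myh7b* rest on at most 125 counts in a library.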
